A study of Mus musculus with 6 samples.

Results

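The genes described are 10 genes of the NRF2 pathway and its antioxidant targets: the regulators Nfe2l2 and Keap1, and the enzyme and transporter genes Nqo1, Hmox1, Gclc, Gclm, Slc7a11, Txnrd1, Srxn1 and G6pdx. They were chosen with earlier results of these data known. Each of the 10 was picked by gene symbol and found once among the 24413 genes of the deposited expression table. Averaged over the 6 libraries, 9 of the 10 reached the limit of 1 FPKM for testing, and Slc7a11 lay below it. FPKM, fragments per kilobase of exon scaled to the library total, is a level corrected for gene length and library size.

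The RNA came from tdT-sorted cells of the Tppp3 lineage in Achilles tendon, taken from 3 male mice aged 12 weeks with the genotype Tppp3ECE/+;R26RtdT-CreERT2;Scx-GFP. In the DRG CM group (3 libraries) the cells spent 24 h in medium conditioned by dorsal root ganglion cultures, and in the 1% FBS group (3 libraries) they spent 24 h in medium with 1% fetal bovine serum. The conditioned medium also held 1% FBS. It was collected from dissociated lumbar ganglia of 3 male C57BL/6J mice aged 12 weeks, grown for 4 to 5 days with antimitotic drugs, and was passed through a 0.22 µm filter. Both groups carry the same alleles, and no medium conditioned by other cells was analysed here. The labels call the libraries biological replicates without naming the animal behind each. The p-values thus describe spread among libraries only, and some of that spread could be technical. The table held 18774719 to 23462267 fragments per DRG CM library and 19954495 to 26061488 per 1% FBS library.

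NRF2, the protein of Nfe2l2, is a transcription factor whose level is set mainly by protein turnover. KEAP1 holds it in the cytoplasm and hands it to a CUL3 ubiquitin ligase, and oxidants or electrophiles that modify KEAP1 cysteines let NRF2 reach the nucleus. There it pairs with a small MAF protein on antioxidant response elements and drives genes for glutathione synthesis, quinone reduction, haem breakdown, thioredoxin recycling and NADPH supply, in fibroblasts as in most other cell types.

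In DRG CM cells, 5 of the 9 tested genes were higher and 0 were lower at an adjusted p below 0.05 in limma. Of all 11678 tested genes, 4.04% were higher and 6.53% were called in either direction. The counts of the lists below at an adjusted p in limma are to be read beside these shares. Genes and lists were chosen with earlier results of these data known, so such comparisons are descriptions and not tests. The 5 higher genes were Nqo1 (quinone reduction), Hmox1 (haem breakdown), Gclm and Gclc (glutathione synthesis) and G6pdx (NADPH supply). The same 5 were higher and 0 lower at an unadjusted p below 0.05, and again by voom, limma's method for counts, on fragments recovered from the table. Voom called 649 of all 11678 tested genes higher and 1128 in either direction. The share of all tested genes at an unadjusted p below 0.05 is not given here. Unadjusted counts, here and in the lists below, thus have no share to be read beside. Nqo1 stood at 2.28 times its 1% FBS level, and the other 4 at 1.25 to 1.41 times. The regulators Nfe2l2 and Keap1 and the thioredoxin-linked genes Txnrd1 and Srxn1 did not pass. All 3 DRG CM libraries lay above all 3 1% FBS libraries for the same 5 of the 9 tested genes, a pattern that 14.3% of all tested genes showed. With 3 against 3 libraries, an exact two-sided permutation test of 1 gene cannot give a p below 0.1, and it gave 0.1 for each of the 5. In bulk RNA, fewer cells of a type and less RNA per cell cannot be told apart.

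**Figure D1:**
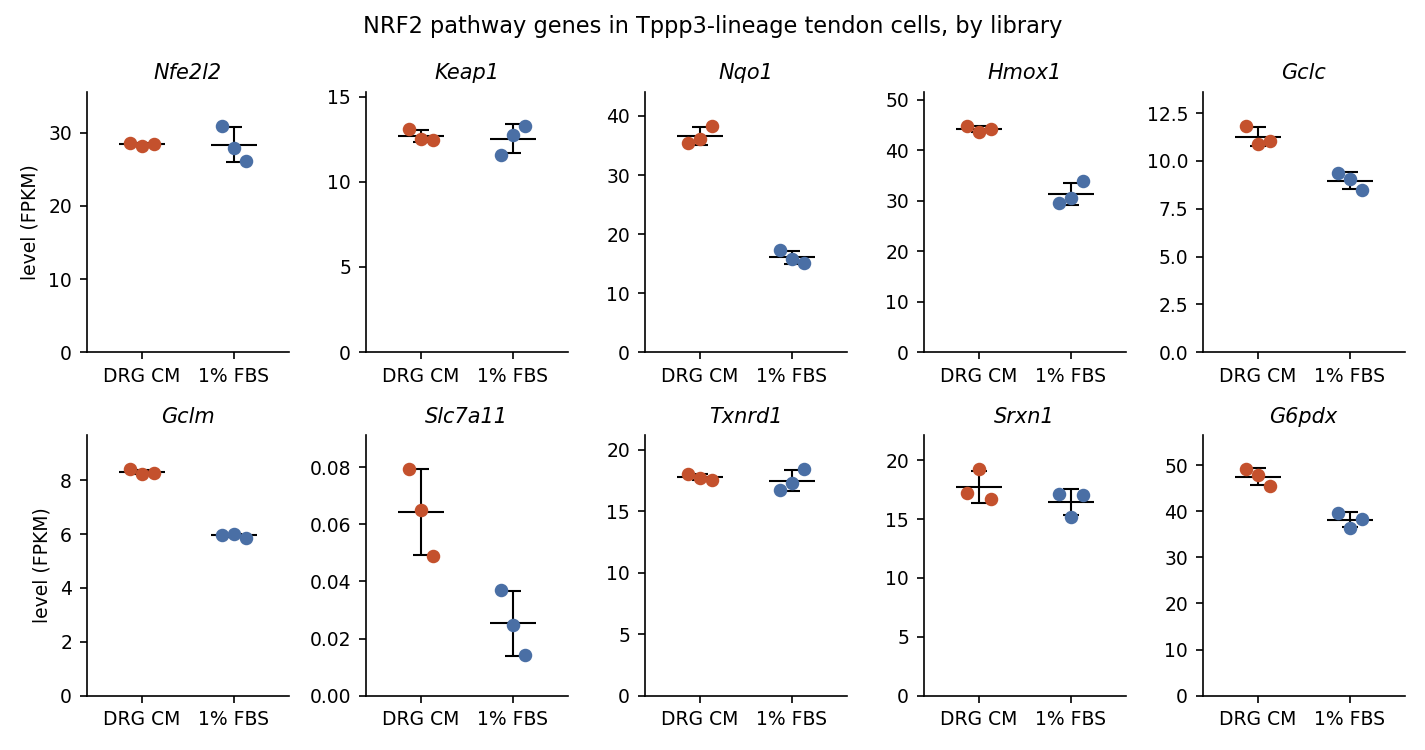
Level in FPKM (vertical axis, starting at 0 and scaled per gene) of the 10 genes in the 3 DRG CM libraries (left, orange) and the 3 1% FBS libraries (right, blue). Points are libraries, the long bar is the mean and the whiskers are 1 SD. The groups stand apart for Nqo1, Hmox1, Gclc, Gclm, Slc7a11 and G6pdx and overlap for Nfe2l2, Keap1, Txnrd1 and Srxn1.

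The promoters of the genes are shown first, since the antioxidant response element is the DNA site through which NRF2 acts. RefSeq windows on GRCm38.p6, from 250 bases before to 50 after a gene's start, were at hand for 8 of the 10 genes (Hmox1 and Gclc had none). The element's core was searched as TGACNNNGC or TGAGNNNGC on both strands. It was found in a window of 6 of the 8 genes, namely Nfe2l2, Gclm, Txnrd1 (1 of its 3 windows), Srxn1, Slc7a11 and G6pdx, and not in those of Nqo1 and Keap1. Of all 27025 genes with a window, 30.8% hold the core, so a match is common, and it describes letters and not a bound site. The 5 windows below are those of the regulator, of 3 genes that were higher in DRG CM cells (1 with no match) and of Srxn1, which did not pass and has the most matches. They run 5′ to 3′ along the gene's strand, with the core matches in capitals.

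Nfe2l2 (chr2:75704614-75704913, minus strand): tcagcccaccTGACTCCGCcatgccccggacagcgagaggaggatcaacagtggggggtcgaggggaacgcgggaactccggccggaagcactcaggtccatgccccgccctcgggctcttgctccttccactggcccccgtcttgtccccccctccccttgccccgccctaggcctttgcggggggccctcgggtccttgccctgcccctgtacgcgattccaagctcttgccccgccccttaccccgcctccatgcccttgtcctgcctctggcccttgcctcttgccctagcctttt

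Nqo1 (chr8:107403156-107403455, minus strand): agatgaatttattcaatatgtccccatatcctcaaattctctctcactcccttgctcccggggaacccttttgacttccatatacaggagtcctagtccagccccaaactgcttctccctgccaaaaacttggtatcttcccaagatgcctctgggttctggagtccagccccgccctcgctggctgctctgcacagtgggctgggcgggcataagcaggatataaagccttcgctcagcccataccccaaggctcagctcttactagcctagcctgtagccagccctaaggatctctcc

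Gclm (chr3:122245307-122245606, plus strand): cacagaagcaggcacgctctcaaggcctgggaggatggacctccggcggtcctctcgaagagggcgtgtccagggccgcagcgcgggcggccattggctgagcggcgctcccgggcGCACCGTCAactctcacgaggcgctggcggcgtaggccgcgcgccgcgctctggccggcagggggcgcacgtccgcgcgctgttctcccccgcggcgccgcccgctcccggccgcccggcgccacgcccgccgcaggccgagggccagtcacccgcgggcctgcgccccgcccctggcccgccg

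G6pdx (chrX:74428831-74429130, minus strand): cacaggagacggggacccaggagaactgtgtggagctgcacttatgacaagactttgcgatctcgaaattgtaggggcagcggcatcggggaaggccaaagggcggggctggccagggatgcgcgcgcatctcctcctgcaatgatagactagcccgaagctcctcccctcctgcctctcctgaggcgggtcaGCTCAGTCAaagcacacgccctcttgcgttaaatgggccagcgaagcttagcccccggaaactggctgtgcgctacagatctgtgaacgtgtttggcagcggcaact

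Srxn1 (chr2:152105274-152105573, plus strand): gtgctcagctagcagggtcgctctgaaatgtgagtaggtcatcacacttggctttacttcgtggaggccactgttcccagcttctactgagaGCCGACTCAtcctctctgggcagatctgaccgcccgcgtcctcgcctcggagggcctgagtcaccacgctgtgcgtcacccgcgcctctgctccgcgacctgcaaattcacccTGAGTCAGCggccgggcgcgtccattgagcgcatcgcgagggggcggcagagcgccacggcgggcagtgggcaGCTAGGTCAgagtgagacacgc

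The Gclm match begins 134 bases before the start and reads TGACGGTGC on the strand opposite to the gene. The G6pdx match begins 57 bases before the start and reads TGACTGAGC on the opposite strand. Srxn1 holds 3 matches, which begin 158 and 45 bases before the start and 29 bases after it. The middle one, TGAGTCAGC, contains the AP-1 motif TGAGTCA, which, searched on both strands, also begins 102 bases before the Srxn1 start and occurs in a window of 5.95% of genes. The Nfe2l2 match, TGACTCCGC, begins 240 bases before the start. Among the 9 tested genes, Nqo1, with the largest log2 fold change, has no match in its window, and Srxn1, with 3, did not pass. Bases outside the windows were not searched, so a window without a match does not mean a gene without an element. The part of antioxidant response elements in the rises was not tested. Over all tested genes with a window, 128 of 3060 with a match (4.18%) and 228 of 5486 without one (4.16%) were higher in DRG CM cells. For the AP-1 motif these counts were 29 of 373 with it (7.77%) and 327 of 8173 without it (4.00%), a difference that was not tested.

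Nfe2l2, the gene of NRF2 itself, lies on chromosome 2 from 75675513 to 75704641, minus strand, on mm10. It had 28.6, 28.1 and 28.4 FPKM in DRG CM replicates 1, 2 and 3, against 30.9, 28.0 and 26.2 FPKM in 1% FBS replicates 1, 2 and 3. The DRG CM libraries lay close together inside the range of the 1% FBS libraries. Its log2 fold change, DRG CM minus 1% FBS on the log2(FPKM + 1) scale used throughout, was 0.0052 ± 0.0584 SE (95% interval -0.13 to 0.14, limma adjusted p = 0.98).

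Keap1, which encodes the adaptor that marks NRF2 for degradation, lies on chromosome 9 from 21229730 to 21239361, minus strand. It had 13.1, 12.5 and 12.5 FPKM in DRG CM cells, against 11.6, 12.7 and 13.3 FPKM in 1% FBS cells, so the groups overlapped. Its log2 fold change was 0.02 ± 0.0553 SE (95% interval -0.11 to 0.15, adjusted p = 0.90). It shares 510 exon bases with the antisense gene Gm16754, which averaged 0.338 FPKM, and the strand setting of the counting is not given in the sources used here.

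The list of 16 other regulators of NRF2 held 14 tested genes, of which 0 were called in either direction by limma or by voom and 1, Atg5, was lower at an unadjusted p below 0.05, with a median log2 fold change of -0.0008 against 0.0052 over all tested genes. Sqstm1, the autophagy receptor that binds KEAP1, averaged 105.9 ± 3.50 FPKM in DRG CM cells and 105.3 ± 1.91 FPKM in 1% FBS cells (SD, n = 3 each, adjusted p = 0.94). Nfe2l1, a related factor of the same family, averaged 70.1 ± 2.04 FPKM in DRG CM cells and 68.7 ± 2.67 FPKM in 1% FBS cells (adjusted p = 0.77). Dpp3, a peptidase that binds KEAP1, averaged 31.6 ± 2.24 FPKM in DRG CM cells and 32.8 ± 0.687 FPKM in 1% FBS cells (adjusted p = 0.66). These are transcript levels, while the pathway acts largely through protein turnover, which RNA libraries do not measure.

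Nqo1 encodes a quinone reductase that passes a pair of electrons from NADH or NADPH to quinones, and is a widely used reporter of NRF2 activity. It lies on chromosome 8 from 107388225 to 107403206, minus strand. Its level was 35.4, 36.1 and 38.3 FPKM in DRG CM replicates 1, 2 and 3, against 17.2, 15.7 and 15.1 FPKM in 1% FBS replicates 1, 2 and 3. The lowest DRG CM library was thus far above the highest 1% FBS library. The means were 36.6 ± 1.51 FPKM in DRG CM cells and 16.0 ± 1.09 FPKM in 1% FBS cells (SD, n = 3 each). The log2 fold change was 1.14 ± 0.0555 SE (95% interval 1.02 to 1.27, limma adjusted p = 1.5e-05), the rise ranked 34 among the 11678 tested genes. The log2 fold change lay between 0.98 and 1.19 over the 16 alternatives computed, and the call held in each.

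Set against its own regulator, Nqo1 gave a ratio of FPKM values to Nfe2l2 of 1.24, 1.28 and 1.35 in DRG CM libraries, against 0.557, 0.563 and 0.578 in 1% FBS libraries (exact permutation p = 0.1). Nqo2, a related reductase that uses another cofactor, did not pass, with a log2 fold change of -0.02 (95% interval -0.17 to 0.14, adjusted p = 0.93). The ratio of Nqo1 to Nqo2 averaged 5.97 ± 0.522 in DRG CM cells and 2.58 ± 0.121 in 1% FBS cells (SD, n = 3 each).

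Nqo1 is also known as a target of the aryl hydrocarbon receptor, a sensor of planar aromatic compounds. In the list of that receptor and its targets, 6 genes were tested and Nqo1 alone was called by limma. By voom Nqo1 was higher and Ahr lower, and at an unadjusted p below 0.05 in limma Nqo1 and Cyp1b1 were higher and Ahr lower. Cyp1b1, a cytochrome P450 and a standard target of the receptor, averaged 136 ± 3.91 FPKM in DRG CM cells and 126 ± 5.12 FPKM in 1% FBS cells, with a log2 fold change of 0.11 (95% interval 0.01 to 0.20, adjusted p = 0.19). Ahr, the receptor, averaged 20.6 ± 1.01 FPKM in DRG CM cells and 23.4 ± 1.20 FPKM in 1% FBS cells (adjusted p = 0.11). Arnt, its dimer partner, had an adjusted p of 0.61.

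Among the 7088 genes that averaged 5 FPKM or more, the 5 whose pattern over the 6 libraries was most like that of Nqo1 were Ifi204, Stat2, Irgm2, Rnf213 and Ifih1. Likeness was the root mean square difference of log2(FPKM + 1) values, each centred on the gene's own mean, and it was 0.0450 for Ifi204 and 0.0529 for Stat2. Irgm2, Rnf213 and Ifih1 followed at 0.0602, 0.0893 and 0.0899. Their log2 fold changes of 1.16, 1.11, 1.13, 1.20 and 1.01, in that order, are near that of Nqo1 by this choice and are given as a description.

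Hmox1 encodes haem oxygenase 1, the inducible enzyme that splits haem into biliverdin, carbon monoxide and iron, and lies on chromosome 8 from 75093621 to 75100589, plus strand. Its level was 44.8, 43.5 and 44.1 FPKM in DRG CM libraries, against 29.6, 30.5 and 33.8 FPKM in 1% FBS libraries. The groups did not overlap, and the DRG CM libraries were the more alike. The log2 fold change was 0.49 ± 0.0516 SE (95% interval 0.37 to 0.60, limma adjusted p = 0.001), a rise ranked 194 among tested genes. Hmox2, the constitutive form of the enzyme, averaged 13.3 ± 0.400 FPKM in DRG CM cells and 13.4 ± 0.794 FPKM in 1% FBS cells (95% interval of the log2 fold change -0.13 to 0.11, adjusted p = 0.97).

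Of the 11 tested genes for haem and iron handling besides Hmox1, 3 were higher in DRG CM cells and 0 lower, with a median log2 fold change of 0.11 (at an unadjusted p below 0.05 in limma, 5 higher and 1 lower, and by voom 4 and 0). Fth1 and Ftl1 encode the heavy and light chains of ferritin, the shell that stores iron. Fth1 averaged 1944 ± 23.5 FPKM in DRG CM cells and 1295 ± 66.5 FPKM in 1% FBS cells (log2 fold change 0.59 ± 0.0403 SE, limma adjusted p = 9.8e-05). Ftl1 averaged 1007 ± 57.0 FPKM in DRG CM cells and 739 ± 47.7 FPKM in 1% FBS cells (log2 fold change 0.45 ± 0.0570 SE, adjusted p = 0.003). In every library the ferritin chains were the most abundant transcripts named here for this pathway. Slc48a1, a haem transporter of lysosomes, averaged 61.3 ± 1.31 FPKM in DRG CM cells and 46.9 ± 2.07 FPKM in 1% FBS cells (adjusted p = 0.0012). Fech, which inserts iron into haem, and Aco1, an iron-sensing protein, did not pass, with adjusted p-values of 0.50 and 0.81. Ferritin genes have near-identical copies, one of which, Ftl1-ps1, had a mean of 14.1 FPKM, so the split of fragments between copies is uncertain.

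Macrophages handle haem and iron and express Hmox1 strongly, so their markers were read beside these genes. Of 13 listed macrophage markers, 9 were in the table, 3 were tested and 0 were called by limma or voom. Of the 3 tested, 1, Lyz2, was lower at an unadjusted p below 0.05 in limma. The median log2 fold change of the 3 was nonetheless 0.12, against 0.0052 over all tested genes. The tested markers other than Lyz2 thus had log2 fold changes of 0.12 or more, and they did not pass. The summed level of the 9 was 6.88 to 7.39 FPKM in DRG CM libraries and 7.16 to 8.56 FPKM in 1% FBS libraries. Of the 9, 4 averaged under 0.1 FPKM in both groups, Ptprc and Adgre1 among them. Ptprc averaged 0.00407 FPKM in DRG CM cells and 9.0e-04 FPKM in 1% FBS cells. Adgre1 was listed at 0 in every DRG CM library and averaged 0.0118 FPKM in 1% FBS cells. Of 7 red blood cell markers, 2 were in the table and neither reached 1 FPKM.

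Glutathione, the main small thiol of the cell, is made from glutamate, cysteine and glycine. Its rate-limiting first step is run by glutamate-cysteine ligase, whose catalytic subunit is encoded by Gclc and whose modifier subunit by Gclm. Gclm (chromosome 3 from 122245557 to 122270732, plus strand) had 8.40, 8.25 and 8.28 FPKM in DRG CM libraries, against 5.97, 6.00 and 5.87 FPKM in 1% FBS libraries. Both groups were tight and lay far apart relative to their spread. The log2 fold change of Gclm was 0.42 ± 0.0436 SE (95% interval 0.32 to 0.52, limma adjusted p = 9.1e-04).

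Gclc (chromosome 9 from 77754535 to 77794485, plus strand) had 11.8, 10.9 and 11.0 FPKM in DRG CM libraries, against 9.39, 9.03 and 8.49 FPKM in 1% FBS libraries. The groups did not overlap, and the gap between them was larger than the range within either group. Its log2 fold change was 0.30 ± 0.0534 SE (95% interval 0.17 to 0.42, adjusted p = 0.015). The call was lost without DRG CM replicate 1 (log2 fold change 0.26, adjusted p = 0.065) and without 1% FBS replicate 2 (0.30, adjusted p = 0.054). The ratio of Gclm to Gclc, in FPKM, was 0.711, 0.757 and 0.750 in DRG CM libraries, against 0.637, 0.665 and 0.691 in 1% FBS libraries (exact permutation p = 0.1). The modifier subunit thus had the lower transcript level in every library, by a smaller margin in each DRG CM library than in any 1% FBS library.

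Slc7a11 encodes the cystine-glutamate exchanger that brings in cystine for glutathione synthesis, and lies on chromosome 3 from 49892526 to 50443614, minus strand. It was close to the detection limit, with 0.0792, 0.0649 and 0.0489 FPKM in DRG CM libraries, against 0.0371, 0.0246 and 0.0142 FPKM in 1% FBS libraries. The fragments behind these values, recovered from the steps of the table, were 24, 17 and 16 in DRG CM libraries, against 12, 9 and 4 in 1% FBS libraries. The groups did not overlap, but the numbers are small. With no filter on low values, limma gave a log2 fold change of 0.05 on the log2(FPKM + 1) scale (95% interval -0.0060 to 0.11, adjusted p = 0.45). With voom on the recovered fragments and no filter, a choice made after seeing the data, the log2 fold change was 1.32 ± 0.503 SE (95% interval 0.31 to 2.32, adjusted p = 0.15). A difference in Slc7a11 was not detectable past the threshold with these fragment numbers.

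Of 15 other tested genes for the synthesis and use of glutathione, 3 were higher and 1 lower in DRG CM cells, with a median log2 fold change of 0.03. Ggt5, a membrane enzyme that cleaves the gamma-glutamyl bond of glutathione conjugates, averaged 10.9 ± 0.125 FPKM in DRG CM cells and 6.95 ± 0.376 FPKM in 1% FBS cells (log2 fold change 0.59 ± 0.0498 SE, limma adjusted p = 3.0e-04). Mgst1, a microsomal glutathione transferase, averaged 22.7 ± 0.580 FPKM in DRG CM cells and 16.1 ± 0.332 FPKM in 1% FBS cells (adjusted p = 2.8e-04). Mgst3, a relative of Mgst1, had a log2 fold change of 0.37 (adjusted p = 0.048), a call that held with 1 library left out only without 1% FBS replicate 3 and otherwise missed at adjusted p-values up to 0.17. Gpx7, a peroxidase of the endoplasmic reticulum, was lower, at 43.5 ± 1.73 FPKM in DRG CM cells and 51.9 ± 1.57 FPKM in 1% FBS cells (log2 fold change -0.25 ± 0.0423 SE, adjusted p = 0.011), a call lost without 1% FBS replicate 2 (-0.24, adjusted p = 0.054). Gpx1, Gpx3 and Gpx4, the more abundant glutathione peroxidases, did not pass, with log2 fold changes of -0.13, -0.05 and 0.10.

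Glutathione S-transferases join glutathione to electrophiles and include classic NRF2 targets. Of 14 tested, 3 were higher and 0 lower in DRG CM cells, and the median log2 fold change was -0.02 (at an unadjusted p below 0.05 in limma, 3 higher and 1 lower, and by voom 3 and 0). Gstm1, of the mu class, had 117.7, 119.8 and 113.0 FPKM in DRG CM libraries, against 68.4, 70.0 and 73.1 FPKM in 1% FBS libraries. Its groups did not overlap, and its log2 fold change of 0.72 ± 0.0393 SE (limma adjusted p = 2.6e-05) was the largest after that of Nqo1 among the tested genes of the pathway lists. Gsta4, of the alpha class, which acts on the lipid peroxidation product 4-hydroxynonenal, averaged 78.1 ± 3.54 FPKM in DRG CM cells and 55.9 ± 3.82 FPKM in 1% FBS cells (log2 fold change 0.48 ± 0.0559 SE, adjusted p = 0.0018). Gstp1, of the pi class, averaged 108 ± 5.92 FPKM in DRG CM cells and 88.4 ± 6.88 FPKM in 1% FBS cells (log2 fold change 0.29 ± 0.0622 SE, adjusted p = 0.032), and with 1 library left out it was called only without 1% FBS replicate 3, with adjusted p-values up to 0.12. Gstm2, next to Gstm1 in class and level, averaged 71.3 ± 2.03 FPKM in DRG CM cells and 70.1 ± 2.63 FPKM in 1% FBS cells (adjusted p = 0.81). Members of the mu and pi classes have close copies between which the authors' counting could split fragments.

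Txnrd1 encodes cytosolic thioredoxin reductase, which uses NADPH to recycle thioredoxin, and lies on chromosome 10 from 82833951 to 82897712, plus strand. It had 18.0, 17.7 and 17.5 FPKM in DRG CM libraries, against 16.7, 17.2 and 18.4 FPKM in 1% FBS libraries. The DRG CM libraries fell inside the 1% FBS range. Its log2 fold change was 0.02 ± 0.0452 SE (95% interval -0.08 to 0.13, limma adjusted p = 0.84).

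Srxn1 encodes sulfiredoxin, which rescues over-oxidised peroxiredoxins, and lies on chromosome 2 from 152105516 to 152111376, plus strand. It had 17.2, 19.2 and 16.7 FPKM in DRG CM libraries, against 17.1, 15.2 and 17.0 FPKM in 1% FBS libraries. DRG CM replicate 2 was the highest and 1% FBS replicate 2 the lowest, and the other 4 libraries lay together. Its log2 fold change was 0.10 ± 0.0661 SE (95% interval -0.05 to 0.25, adjusted p = 0.47).

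The other 15 genes of the thioredoxin and peroxiredoxin list were all tested, and 3 were higher and 1 lower in DRG CM cells (by voom 4 and 2, with Txn1 higher and Txnip lower besides), with a median log2 fold change of 0.0084. Prdx1, an abundant cytosolic peroxiredoxin, averaged 143 ± 3.67 FPKM in DRG CM cells and 119 ± 2.64 FPKM in 1% FBS cells (log2 fold change 0.27 ± 0.0347 SE, limma adjusted p = 0.0027), and its call held in every alternative. Txn1, the cytosolic thioredoxin, averaged 116 ± 3.76 FPKM in DRG CM cells and 102 ± 8.38 FPKM in 1% FBS cells (log2 fold change 0.18, 95% interval 0.05 to 0.32, adjusted p = 0.13). Txnrd3, a thioredoxin-glutathione reductase, and Msrb1, a methionine sulfoxide reductase, were higher by 0.30 and 0.17 on the log2 scale (adjusted p = 0.026 and 0.042). Both kept their calls with 1 library left out only without DRG CM replicate 2, with adjusted p-values up to 0.11 for Txnrd3 and 0.16 for Msrb1 otherwise. Sesn2, a stress-induced regulator also on the list of ATF4 targets, was lower, at 24.3 ± 0.628 FPKM in DRG CM cells and 28.3 ± 1.25 FPKM in 1% FBS cells (log2 fold change -0.21, adjusted p = 0.028), but with 1 library left out it was called only without 1% FBS replicate 1, with adjusted p-values up to 0.10. Prdx2 and Prdx5 did not pass, with log2 fold changes of -0.07 and -0.0058.

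**Figure D2:**
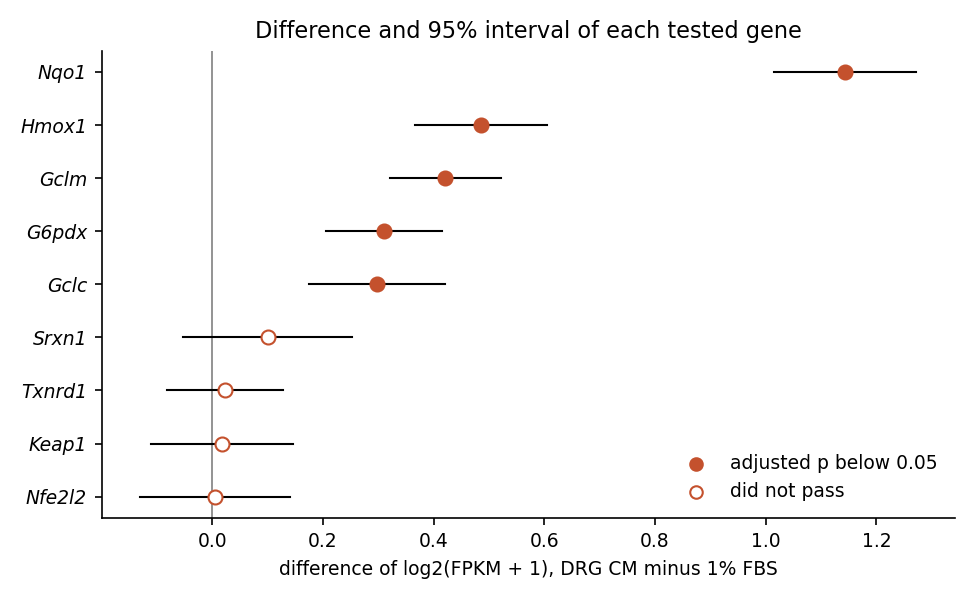
Difference of log2(FPKM + 1), DRG CM minus 1% FBS (horizontal axis), of the 9 tested genes, with 95% intervals from limma; filled points passed an adjusted p of 0.05. Nqo1 stands apart at 1.14, Hmox1, Gclm, G6pdx and Gclc lie between 0.30 and 0.49, and the intervals of Srxn1, Txnrd1, Keap1 and Nfe2l2 include 0.

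G6pdx encodes glucose-6-phosphate dehydrogenase, which opens the pentose phosphate pathway and yields NADPH, the electron source of both the glutathione and thioredoxin systems. It lies on chromosome X from 74409483 to 74429194, minus strand. It had 49.0, 47.9 and 45.5 FPKM in DRG CM libraries, against 39.6, 36.4 and 38.4 FPKM in 1% FBS libraries, with no overlap. Its mean was 47.5 ± 1.79 FPKM in DRG CM cells and 38.1 ± 1.65 FPKM in 1% FBS cells (SD, n = 3 each), the highest of the 10 genes in both groups. The log2 fold change was 0.31 ± 0.0454 SE (95% interval 0.20 to 0.41, limma adjusted p = 0.0057). G6pdx shares 418 exon bases with Ikbkg on the opposite strand, and without a stated strand setting their fragments cannot be told apart there. Ikbkg averaged 7.21 ± 0.402 FPKM in DRG CM cells and 6.72 ± 0.259 FPKM in 1% FBS cells (adjusted p = 0.45).

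Of the 11 other tested genes of NADPH supply, 2 were higher and 0 lower in DRG CM cells (8 and 0 at an unadjusted p below 0.05 in limma, 5 and 0 by voom), and their median log2 fold change was 0.15. For 9 of the 11, every DRG CM library lay above every 1% FBS library, against 14.3% of all tested genes. The share of all tested genes at an unadjusted p below 0.05 is not given here. Pgd, 6-phosphogluconate dehydrogenase of the same pathway, averaged 38.8 ± 0.895 FPKM in DRG CM cells and 30.4 ± 0.856 FPKM in 1% FBS cells (log2 fold change 0.34 ± 0.0381 SE, adjusted p = 0.0014). Tkt, transketolase, averaged 42.1 ± 1.13 FPKM in DRG CM cells and 35.2 ± 1.47 FPKM in 1% FBS cells (log2 fold change 0.25 ± 0.0423 SE, adjusted p = 0.011). The Tkt call was lost without DRG CM replicate 1 (adjusted p = 0.058), DRG CM replicate 2 (0.063) or 1% FBS replicate 2 (0.053). It was also lost in limma with a replicate block (adjusted p = 0.073). Taldo1, transaldolase, had a log2 fold change of 0.34 (95% interval 0.15 to 0.52) and missed the threshold at an adjusted p of 0.050. Me1, malic enzyme, and Idh1, isocitrate dehydrogenase, showed differences of 0.17 and 0.09 on the log2 scale (adjusted p = 0.085 and 0.19). The ratio of G6pdx to Pgd averaged 1.23 ± 0.0245 in DRG CM cells and 1.25 ± 0.0331 in 1% FBS cells (exact permutation p = 0.4).

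By level per length, the order in DRG CM cells was G6pdx, Hmox1, Nqo1, Nfe2l2, Txnrd1, Srxn1, Keap1, Gclc, Gclm and Slc7a11. In 1% FBS cells it was G6pdx, Hmox1, Nfe2l2, Txnrd1, Srxn1, Nqo1, Keap1, Gclc, Gclm and Slc7a11, so Nqo1 held rank 3 in DRG CM cells and rank 6 in 1% FBS cells. Among neighbours in this order, the libraries of Txnrd1 and Srxn1 overlapped in DRG CM cells. In 1% FBS cells those of Hmox1 and Nfe2l2 overlapped, as did those of Txnrd1, Srxn1 and Nqo1. In FPKM, Nqo1 was 0.791 to 0.868 times Hmox1 in DRG CM libraries and 0.448 to 0.582 times in 1% FBS libraries.

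Across 13 pathway lists, 177 genes other than the 10 were listed, 144 were tested, 21 were higher and 2 lower in DRG CM cells. Of all 11678 tested genes, 472 (4.04%) were higher and 291 lower. Enzymes that remove superoxide and peroxide made up a list of 5, of which 1 was called (by voom 2, Cat and Sod1): Cat, catalase, with 52.9 ± 0.509 FPKM in DRG CM cells and 43.6 ± 0.910 FPKM in 1% FBS cells (log2 fold change 0.27 ± 0.0333 SE, limma adjusted p = 0.0022). Sod1, cytosolic superoxide dismutase, had a log2 fold change of 0.22 (95% interval 0.08 to 0.37, adjusted p = 0.081), and Sod3, the extracellular form, one of -0.08 (adjusted p = 0.35). Of 20 other enzymes and pumps for quinones, carbonyls and conjugates, 2 were higher and 18 did not pass. By voom 4 were higher (Ptgr1, Ugdh, Abcc1 and Abcc4), and at an unadjusted p below 0.05 in limma 5 were. For 8 of the 20 every DRG CM library lay above every 1% FBS library, against 14.3% of all tested genes. Abcc1, a pump for glutathione conjugates, and Ugdh, which makes the substrate for glucuronidation, were higher by 0.19 and 0.17 on the log2 scale (adjusted p = 0.035 each), and neither was called with any 1 of the 6 libraries left out (adjusted p of 0.051 to 0.13 for Abcc1 and 0.059 to 0.14 for Ugdh). Ephx1, epoxide hydrolase, averaged 184 ± 1.21 FPKM in DRG CM cells and 183 ± 3.22 FPKM in 1% FBS cells (adjusted p = 0.89). Among 12 further reported NRF2 targets, Esd, S-formylglutathione hydrolase, was the 1 called, with 71.8 ± 1.16 FPKM in DRG CM cells and 56.4 ± 2.07 FPKM in 1% FBS cells (adjusted p = 0.0012). Psmb5, Psma5 and Mdm2 of the same list did not pass, with log2 fold changes of 0.12, -0.0032 and -0.16, although by voom 2 of this list were higher (Esd and Rxra) and 1, Mdm2, was lower.

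**Figure D3:**
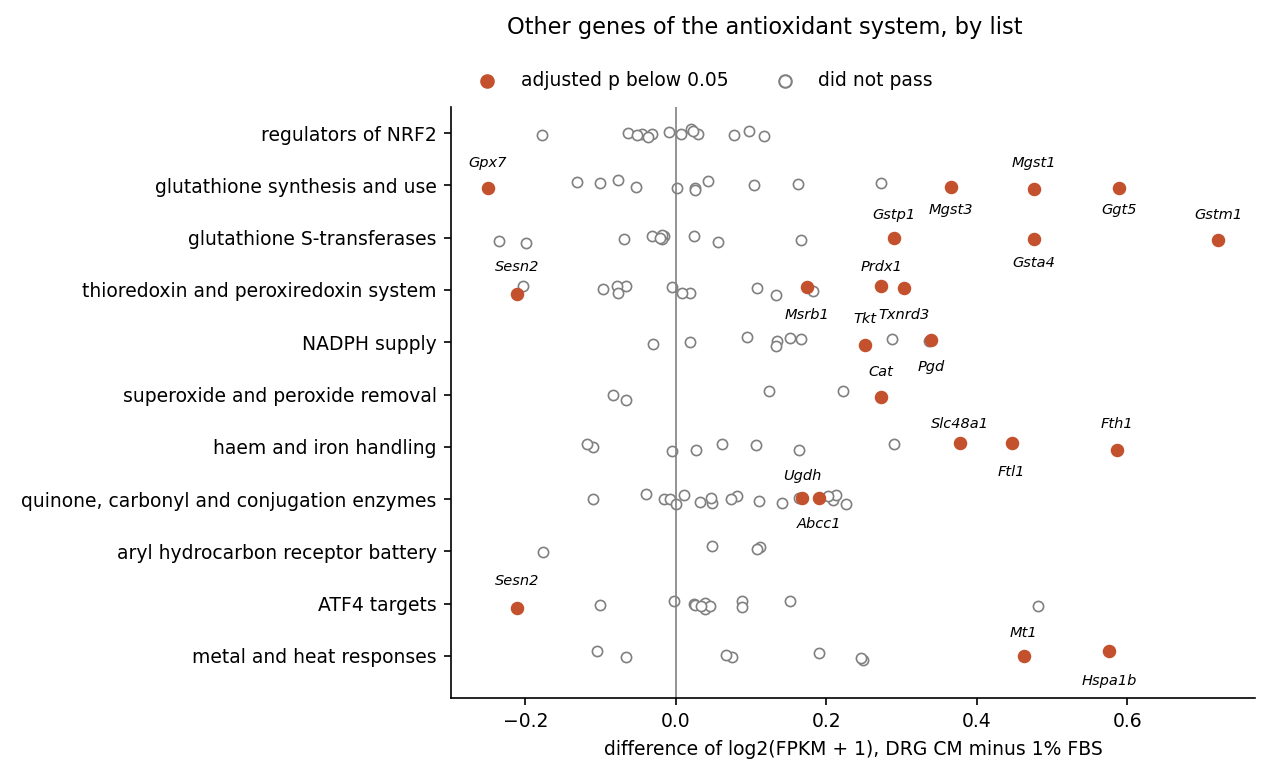
Difference of log2(FPKM + 1), DRG CM minus 1% FBS (horizontal axis), of tested genes in 11 lists (rows), without the 10 genes of the report. Filled points with names passed an adjusted p of 0.05 in limma and open points did not; height within a row carries no value. The called genes lie mostly right of 0, with Gstm1 farthest at 0.72, and 0 of the 14 regulators were called.

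Stress pathways that share targets with NRF2 were read beside it. Of 13 tested ATF4 targets, the amino acid stress response that also drives Slc7a11, 0 were higher and Sesn2 alone was lower, by limma and by voom (at an unadjusted p below 0.05 in limma, 2 higher and 1 lower). Atf4 itself averaged 68.3 ± 2.43 FPKM in DRG CM cells and 66.5 ± 3.05 FPKM in 1% FBS cells (limma adjusted p = 0.71). Of 9 tested genes of the metal and heat responses, 2 were higher (by voom 4, with Hspb1 and Hsph1 besides): Hspa1b, an inducible HSP70 chaperone, with 55.2 ± 1.93 FPKM in DRG CM cells and 36.7 ± 2.23 FPKM in 1% FBS cells (adjusted p = 3.6e-04), and Mt1, a metallothionein, with 10.5 ± 1.000 FPKM in DRG CM cells and 7.30 ± 0.368 FPKM in 1% FBS cells (adjusted p = 0.0073). Hspa1a, a near-identical copy of Hspa1b, had an adjusted p of 0.33, so the value of each is uncertain. Among 5 tested NADPH oxidase and other oxidant-producing genes, Xdh, xanthine dehydrogenase, was higher, at 13.1 ± 0.323 FPKM in DRG CM cells and 8.40 ± 0.178 FPKM in 1% FBS cells (log2 fold change 0.58 ± 0.0429 SE, adjusted p = 1.4e-04). Of the 21 higher calls over all these lists, 14 held in every alternative.

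Markers of the tendon lineage moved with the medium as well: of 12 tested, 7 were lower and 1 was higher in DRG CM cells. Of all 11678 tested genes, 291 were lower and 472 higher. Of the 12 markers, 8 were lower and 2 higher at an unadjusted p below 0.05 in limma, and by voom 7 and 2. Cd34, Fmod, Dcn, Tnmd and Lum were lower, with log2 fold changes of -0.47, -0.46, -0.45, -0.41 and -0.40, and Ly6a was higher, with 0.46 (limma adjusted p from 1.2e-04 to 0.023). Tppp3, for which the lineage is named, was low in both groups, with 0.776 to 1.12 FPKM in DRG CM libraries and 0.724 to 1.05 FPKM in 1% FBS libraries. Scx averaged 11.5 ± 0.433 FPKM in DRG CM cells and 13.2 ± 0.551 FPKM in 1% FBS cells (limma adjusted p = 0.073). Neuronal markers, summed over the 12 of 16 in the table, reached 21.2 to 23.2 FPKM in DRG CM libraries and 27.0 to 30.5 FPKM in 1% FBS libraries. Of these, 2 were tested, with a median log2 fold change of -0.22. Tubb3 was lower in DRG CM cells (log2 fold change -0.43, limma adjusted p = 0.0018), and the other tested marker did not pass. Endothelial markers, 1 of 8 tested, summed to 4.51 to 5.03 FPKM in DRG CM libraries and 5.86 to 6.58 FPKM in 1% FBS libraries. The 1 tested, Tek, was lower in DRG CM cells (log2 fold change -0.33, adjusted p = 0.023). Glial markers, 1 of 9 tested, summed to 2.25 to 3.48 FPKM in DRG CM libraries and 3.41 to 4.08 FPKM in 1% FBS libraries, and the 1 tested, S100b, did not pass (log2 fold change -0.47, adjusted p = 0.10). The part of these markers in the rises of Nqo1, Hmox1, Gclc, Gclm and G6pdx was not tested.

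**Figure D4:**
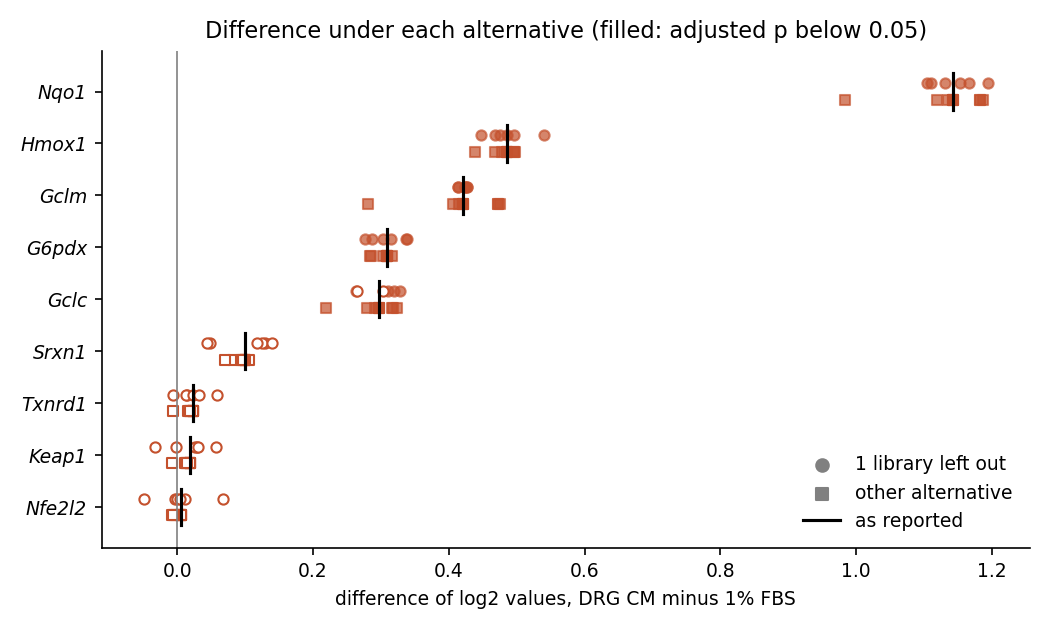
Difference of log2 values, DRG CM minus 1% FBS (horizontal axis), of the 9 tested genes under 16 alternative ways of computing it. Circles leave out 1 library, squares are the other alternatives, black bars are the values as reported, and filled symbols passed an adjusted p of 0.05. Nqo1, Hmox1, Gclm and G6pdx are filled throughout, Gclc has 2 open circles, and Srxn1, Txnrd1, Keap1 and Nfe2l2 are open throughout.

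With 1 library left out, 4 or 5 of the 9 genes were called, and 5 in each of the other alternatives. Only Gclc lost its call, in the fits given above.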

How the data were processed

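The deposited table holds FPKM values, made by the authors, for 6 libraries and 24413 genes. Per the submitters' processing notes, CASAVA, HISAT2 2.0.5 and the mm10 build were used, with no role or order given. For the counting program, annotation, strand setting and filters, the sources used here give nothing. Design and lists were written for counts or FPKM, and the FPKM version applied.

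Values were tested as log2(FPKM + 1), a log2 scale that understates changes of low genes, for genes averaging 1 FPKM or more, in limma 3.58.1 (R 4.3.3; two-sided, no covariate, robust prior with a mean-variance trend). Benjamini-Hochberg adjustment ran over the 11678 genes tested, at a threshold of 0.05. Errors are SD over libraries or SE of the fit. FPKM steps gave whole fragments for 24413 of 24413 genes within 0.0001 fragment. These served for depth and for voom, which called 649 genes higher and 479 lower. The total by which the authors divided was not a whole number and lay within 1.07% of the table's sum. The scripts were tested on simulated data.

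Coordinates come from GENCODE on mm10 (24403 gene IDs found), promoter windows from RefSeq on GRCm38.p6. The genes and lists were chosen with earlier results of these data known. All 10 genes were named; from each other list, called genes (up to 6, by absolute log2 fold change) and up to 3 abundant genes that did not pass. Tppp3, Nqo2, Hspa1a, macrophage markers and genes named for voom or unadjusted counts were chosen outside that rule, after their values were seen. Alternatives were other pseudocounts, filters, scalings and priors, voom, a replicate block, and each library left out.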

Additional observations from a re-analysis of the deposited data

How the results depend on the processing

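Nqo1, Hmox1, Gclm and G6pdx kept direction and call in all 16 alternatives. Leaving out 1 library, the number of the 10 genes called was 4 to 5, and Gclc ranged from 0.26 to 0.33. Over all genes, 763 were called, against 492 with no filter, 390 with the replicate block, 1179 with voom on recovered fragments and no filter (chosen after seeing the data), and 394 to 676 with 1 library left out. Higher calls were 472, against 259 with the replicate block and 265 to 426 with 1 library left out. Higher calls among other listed genes were 21, against 32 with voom and 14 to 20 with 1 library left out. Lower calls among them were 2, against 1 with no filter, without trend and robust prior, or with the block, 4 with quantile normalization, 5 with voom, 6 with voom and no filter, and 0 to 2 with 1 library left out. Uncalled genes near 0 changed sign: with quantile normalization Keap1 was at -0.0070, Nfe2l2 at -0.0073 and Txnrd1 at -0.0068; Nfe2l2 was at -0.0020 with size factors, -0.0053 with voom and -0.0055 with voom and no filter. With 1 library left out, Keap1 ranged from -0.0327 to 0.0578, Nfe2l2 from -0.0492 to 0.0675 and Txnrd1 from -0.0056 to 0.0587. The cause of these changes was not tested.

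Deviations of same-numbered libraries from their group means had correlations of -0.0948, -0.00803 and -0.0476 for replicates 1, 2 and 3. Such deviations sum to 0 within each group and the labels name no animals. These correlations thus cannot tell whether same-numbered libraries were paired. With the replicate block all 5 called genes kept their calls (adjusted p from 8.8e-04 for Nqo1 to 0.043 for Gclc). Slc7a11 had the fewest fragments of the 10 genes, 4 to 24 per library.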
